A study of Mus musculus with 5 samples.

Results

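Thyroglobulin (Tg), the protein precursor of thyroid hormone, and 8 further genes of thyroid hormone synthesis were described in sorted mouse airway epithelium. The 9 genes are Tg, Tshr, Slc5a8, Iyd, Slc26a4, Duox2, Duoxa2, Pax8 and Dio1. Their probe sets were taken where the array annotation assigned them to 1 of these genes alone. That gave 11 of the 45101 probe sets on the array and covered 8 of the 9 genes. Duox2 had no such probe set and is not analysed here. Of the 8 genes, 5 passed the filter on low values and were tested among 12536 genes.

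RNA was hybridised from 3 samples of duct cells and 2 samples of basal cells of the proximal airway of C57BL/6 mice of both sexes, aged 8 to 12 weeks. Each sample was a pool of 10 to 15 animals, and no sample shared its pool with another. Duct cells were TROP-2+ cells sorted from the upper section of the trachea, after the surface epithelium had been taken off by digestion with pronase. Basal cells were TROP-2+ITGA6+ cells sorted from the lower section, where dispase was used to free the surface epithelium. No animal carried a stated transgene or treatment. Section, enzyme and sort gate changed together with the group, so they cannot be told apart from the cell type.

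Thyroid follicular cells take up iodide from the blood and pass it into the follicle lumen, where it is attached to tyrosines of thyroglobulin with hydrogen peroxide as the oxidant. Thyroid-stimulating hormone acts through its receptor, encoded by Tshr, and raises this activity. Several genes of the pathway are also used outside the thyroid, among them the peroxide-producing dual oxidases and the anion transporter Slc26a4 in airway epithelium and the deiodinase Dio1 in liver and kidney. The thyroid gland lies against the upper trachea.

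Airway basal cell markers lay above background on the arrays of both groups, and their sum was higher on the duct arrays. Summed over Krt5, Krt14, Krt15, Trp63 and Ngfr, they ran from 63850 to 74520 on the duct arrays and from 43250 to 45554 on the basal arrays. Krt14, the 1 of 5 called, beside 0.838% of all genes tested called higher, measured 18615, 18421 and 22413 in duct cells, against 1327 and 1533 in basal cells. Krt15 measured 20755, 21342 and 24876 in duct cells, against 20212 and 20242 in basal cells. Krt5 measured 16830.5, 17749.9 and 19821.1 in duct cells, against 12333.7 and 11617.4 in basal cells. Krt15 and Krt5 were higher on every duct array without passing the test (limma adjusted p = 0.790 and 0.256). Ngfr measured 406, 754 and 466 in duct cells, against 1791 and 1820 in basal cells. Trp63 measured 7243, 7053 and 6944 in duct cells, against 9891 and 8038 in basal cells. Ngfr and Trp63 were lower on every duct array without passing the test (limma adjusted p = 0.0786 and 0.499). Duct replicate 1 stood apart in its median intensity, 92.3, against 149.2 and 149.4 on the other duct arrays and 152.8 and 146.6 on the basal arrays. With no detection calls, the brightest probe set for a Bacillus transcript, absent from mouse cells, served as the background level. It was 39.5, 55.9 and 61.9 on duct replicates 1, 2 and 3 and 59.7 and 86.5 on basal replicates 1 and 2.

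Tg was high in all 3 duct pools and at background in both basal pools. Its probe set, 1450790_at, measured 8779, 16062 and 20119 on duct replicates 1, 2 and 3, against 11.1 and 53.2 on basal replicates 1 and 2. The groups did not overlap, and both basal values lay under the brightest Bacillus control of their array. Mean intensity was 14987 ± 5746 (SD, n = 3) in duct cells and 32.2 ± 29.8 (SD, n = 2) in basal cells. On the log2(intensity + 16) scale Tg rose by 8.35 (SE 0.54, 95% interval 7.02 to 9.68, limma adjusted p = 0.00595). With the basal background level in place of the measured basal values, mean Tg on that scale was at least 161-fold higher in duct cells. Of all 12536 tested genes, 0.838% were called higher in duct cells at an adjusted p under 0.05. The call was lost when duct replicate 3 was left out (log2 fold change 8.10, limma adjusted p = 0.0736). It was also lost without basal replicate 1 or basal replicate 2, at log2 fold changes of 7.68 and 9.03, where 1 basal array remained.

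Iyd encodes iodotyrosine deiodinase, which recovers iodide from iodinated tyrosines left over from hormone synthesis. Its probe set, 1451547_at, measured 252, 419 and 698 on duct replicates 1, 2 and 3, against 78.1 and 59.2 on basal replicates 1 and 2. All duct values were above both basal values, and basal replicate 2 was under its background level. The log2 fold change was 2.38 (SE 0.45, 95% interval 1.27 to 3.48), with an unadjusted p of 0.00203 and an adjusted p of 0.0786 with limma, so Iyd did not pass the test over all genes. It did pass with each array centred on its median (2.58, limma adjusted p = 0.00282), with a stricter filter that dropped 60% of probe sets (adjusted p = 0.0367) and with an intensity trend and robust fit (adjusted p = 0.0168). In 12 further alternatives Iyd did not pass, at log2 fold changes from 1.88 to 2.73. Among these were no filter (limma adjusted p = 0.160) and the replicate number as a block (limma adjusted p = 0.320).

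Dio1 encodes type 1 deiodinase, which removes an outer-ring iodine from thyroxine to give the active hormone. Its probe set, 1417991_at, measured 56.6, 203 and 221 on duct replicates 1, 2 and 3, against 1.09 and 33.0 on basal replicates 1 and 2. The duct values were all above background and the basal values were both under it, and the groups did not overlap. The probe set was too dim over the 5 arrays to pass the filter. Against the basal background level the mean over the 3 duct arrays was at least 1.77-fold higher. Duct replicate 1, at 56.6, lay under that level, which was 59.7 and 86.5 on basal replicates 1 and 2. With no filter the log2 fold change of Dio1 was 2.43 (SE 0.71, limma adjusted p = 0.263).

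Iyd and Dio1 shared the order of the duct pools with Tg, and their promoter windows are shown for that reason. RefSeq promoter windows on GRCm38.p6, 250 bases before to 50 bases after the gene start, matched 7 of the 9 genes, Tg and Tshr not among them. The windows were searched on both strands for TATAAA, a core promoter element, and for CTCAAG, a core of sites bound by the thyroid and lung transcription factor NKX2-1. Capitals mark matches, which nowhere overlapped. Iyd lies on the plus strand, chr10:3540024-3540323, and Dio1 on the minus strand, chr4:107307119-107307418, both written 5′ to 3′.
Iyd promoter window: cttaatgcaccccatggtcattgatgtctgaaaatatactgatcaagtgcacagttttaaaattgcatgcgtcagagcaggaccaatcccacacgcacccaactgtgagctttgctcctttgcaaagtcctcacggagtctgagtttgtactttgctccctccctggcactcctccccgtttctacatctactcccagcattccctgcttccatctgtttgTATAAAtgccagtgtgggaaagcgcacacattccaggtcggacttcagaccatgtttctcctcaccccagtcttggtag
Dio1 promoter window: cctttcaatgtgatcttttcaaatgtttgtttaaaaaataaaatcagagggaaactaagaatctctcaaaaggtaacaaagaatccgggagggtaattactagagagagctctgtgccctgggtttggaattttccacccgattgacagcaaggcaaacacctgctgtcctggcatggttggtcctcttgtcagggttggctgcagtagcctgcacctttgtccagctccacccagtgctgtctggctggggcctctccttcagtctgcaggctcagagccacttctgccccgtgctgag
The Iyd window held 1 match to TATAAA and the Dio1 window held 0. Neither window held CTCAAG. Among 32817 promoter windows of the same length, 13.6% held TATAAA and 15.9% held CTCAAG.

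Pax8 is a transcription factor of follicular cells that acts on the Tg promoter. Its brighter probe set, 1418208_at, measured 141, 99.6 and 199 on duct replicates 1, 2 and 3, against 90.9 and 35.6 on basal replicates 1 and 2. The groups did not overlap, and the margin was small: duct replicate 2 lay just above basal replicate 1. The log2 fold change was 1.09 (SE 0.43, limma adjusted p = 0.265). The second Pax8 probe set, 1446561_at, measured 38.9, 152 and 83.7 in duct cells, against 211 and 7.64 in basal cells. On this probe set basal replicate 1 was the brightest array and basal replicate 2 the dimmest, so the probe sets of Pax8 disagree.

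Tshr, the receptor for thyroid-stimulating hormone, had 3 probe sets, all under the filter. The brightest, 1421999_at, measured 61.2, 55.8 and 223 on duct replicates 1, 2 and 3, against 79.8 and 4.66 on basal replicates 1 and 2. Here the groups overlapped, and duct replicate 3 stood above the other 4 arrays. Probe set 1442300_at measured 32.3, 161 and 64.4 in duct cells, against 103 and 10.9 in basal cells. Probe set 1428001_at measured 5.61, 39.5 and 110.0 in duct cells, against 20.2 and 38.4 in basal cells. The groups overlapped on both. Duct replicate 3 was the brightest array on 1428001_at and duct replicate 2 on 1442300_at. With no filter the log2 fold change of the brightest was 1.30 (SE 0.84, limma adjusted p = 0.571).

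Slc5a8 encodes a sodium-coupled monocarboxylate transporter found in thyroid, gut and kidney epithelia. Its probe set, 1425606_at, measured 657, 271 and 555 on duct replicates 1, 2 and 3, against 139 and 445 on basal replicates 1 and 2. All 5 values were above background and the groups overlapped, with a log2 fold change of 0.84 (SE 0.59, 95% interval -0.62 to 2.30, limma adjusted p = 0.496). Without basal replicate 1 the log2 fold change was 0.056.

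Duoxa2, the maturation factor that brings dual oxidase 2 to the cell surface, measured 61.2, 213 and 146 on duct replicates 1, 2 and 3, against 109.7 and 86.8 on basal replicates 1 and 2 (probe set 1422137_at). Duct replicate 1 was the lowest of the 5 arrays, so the groups overlapped. The log2 fold change was 0.32 (SE 0.49, 95% interval -0.89 to 1.53, limma adjusted p = 0.766). Slc26a4, which encodes pendrin, the exchanger that passes iodide into the follicle lumen, measured 8.62, 21.8 and 16.1 in duct cells, against 13.1 and 13.1 in basal cells (probe set 1419725_at). All 5 values were under the Bacillus background, so these data give no level for Slc26a4 in either group.

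**Figure D1:**
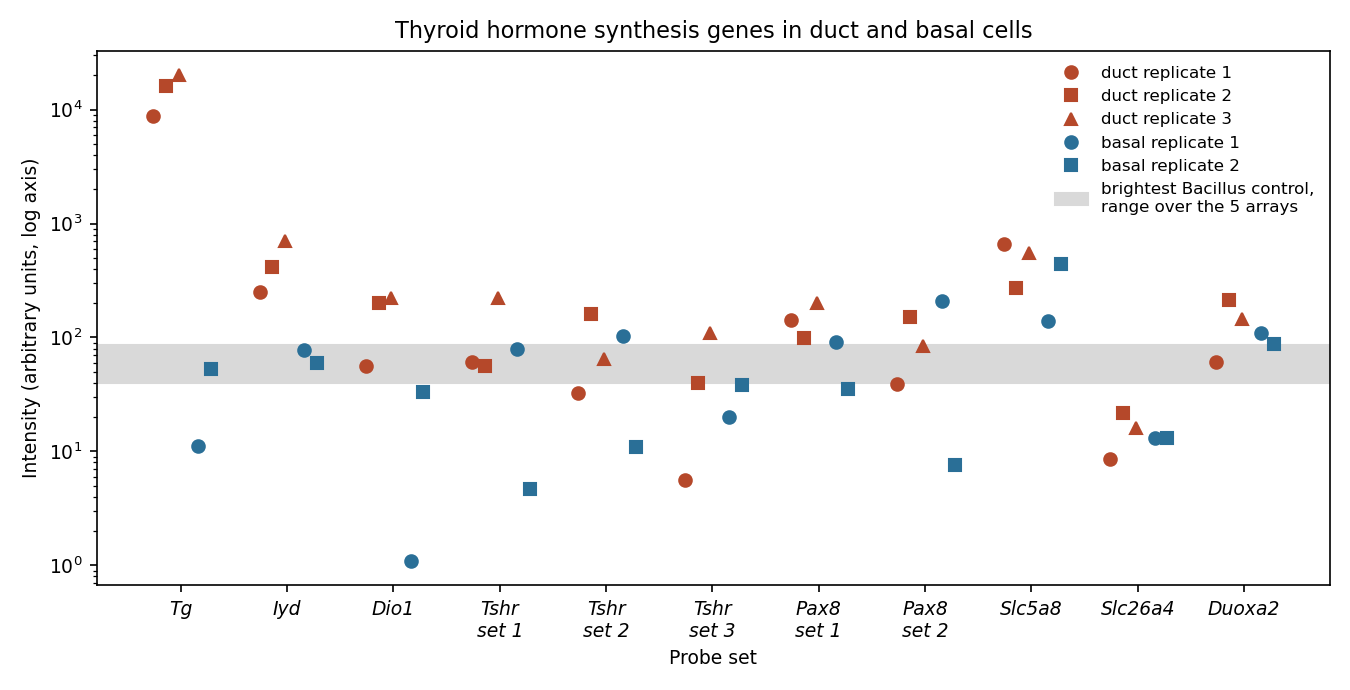
Intensity of each of the 11 probe sets (log axis, arbitrary units) on the 3 duct arrays (red) and the 2 basal arrays (blue), with the range of the brightest Bacillus control over the arrays as a grey band. Tg lies between 8779 and 20119 on the duct arrays and within or under the band on the basal arrays. Iyd, Dio1 and the brighter Pax8 probe set are higher on every duct array than on either basal array. Dio1 lies within the band on duct replicate 1. The remaining probe sets lie around the band, under it for Slc26a4, or, for Slc5a8, above it on both kinds of array.

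Of the 5 tested members 1 rose in duct cells and 0 fell, beside 0.838% and 0.136% of all genes tested. The log2 fold change was positive in all 5, with a median of 1.09, and in 41.6% of all genes tested, whose median was -0.12. In 3 of the 5 (Tg, Iyd and Pax8) every duct array lay above both basal arrays, as it did in 16.5% of all genes tested. Over all 11 probe sets, without the filter, this held for 4, the fourth being that of Dio1, and for 11.8% of all probe sets. The arrays are of bulk RNA, so fewer cells that express a gene and less of its RNA per cell cannot be told apart.

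**Figure D2:**
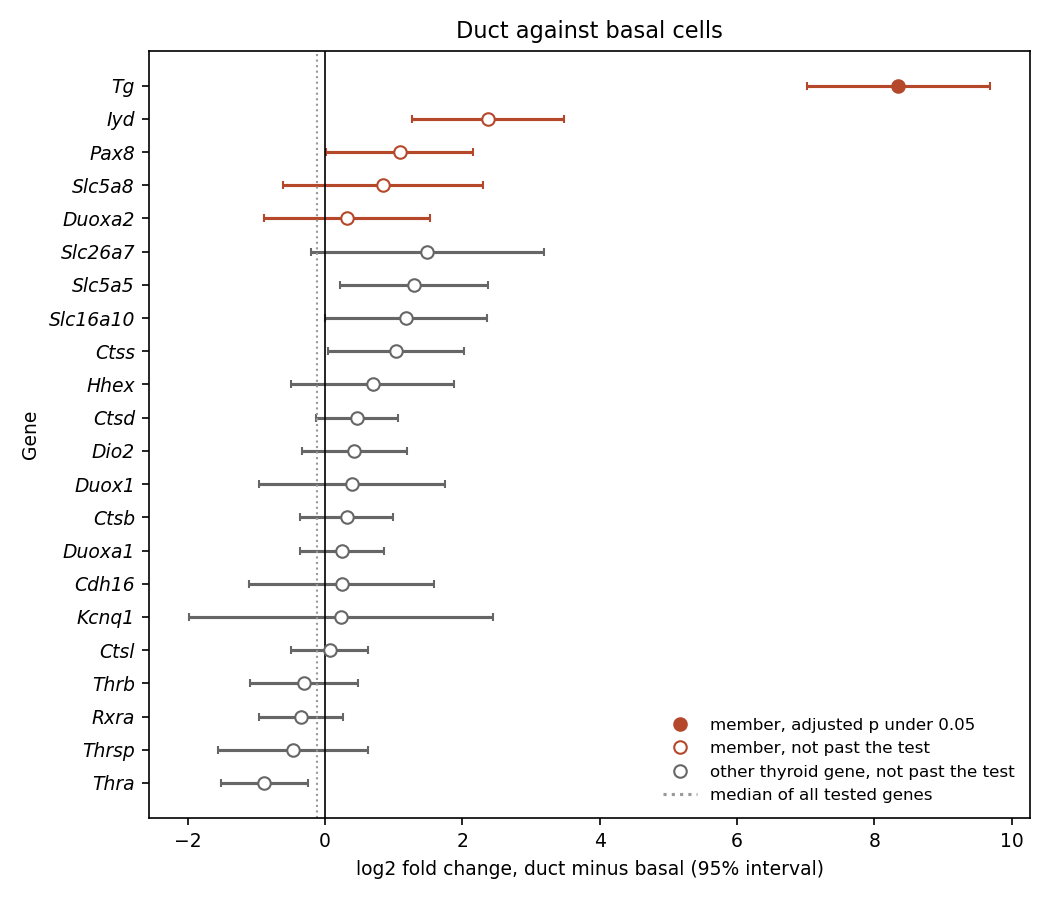
Log2 fold change, duct minus basal, with its 95% interval for the 5 tested members (red) and the 17 tested other thyroid genes (grey); filled points passed the test. Tg, at 8.35, is the only filled point, and the other genes lie between -0.89 and 2.38.

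Across the duct pools, Tg was lowest in replicate 1 and highest in replicate 3. It measured 1.83 times the level of duct replicate 1 in duct replicate 2 and 2.29 times in duct replicate 3. For Iyd these ratios were 1.66 and 2.77, and for Dio1 3.58 and 3.91. The median ratios of all tested genes were 1.05 and 1.04. A ratio of duct replicate 3 to duct replicate 1 at least as large as that of Tg was found in 12.8% of all tested genes.

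Other members ranked the pools differently. In Duoxa2 the ratios were 3.47 and 2.38, with duct replicate 2 the highest. Pax8, at 0.71 and 1.41 on its brighter probe set, and Slc5a8, at 0.41 and 0.85, were lowest in duct replicate 2. The ratios of the brightest Tshr probe set were 0.91 and 3.64.

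Counting Tg itself, which has that order by definition, 2 of the 5 tested members ranked the duct pools as Tg did. Without Tg it was 1 of 4, against 21.1% of all genes tested. The same order was found in 4 of the 11 probe sets, those of Tg, Iyd and Dio1 and the dimmest of Tshr. Without that of Tg it was 3 of 10, near the 26.9% of all probe sets. Duct replicate 1, the array with the low median, was the lowest duct array in 8 of the 11 probe sets and in 50.5% of all probe sets. With each array centred on its median the ratios became 1.13 and 1.42 for Tg, 1.03 and 1.71 for Iyd and 2.22 and 2.42 for Dio1, and the medians of all tested genes became 0.65 and 0.64. The order of the pools in these 3 genes was the same with quantile normalization, with centring and with the median Bacillus intensity subtracted. With 3 pools a relation between genes across pools was not tested.

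**Figure D3:**
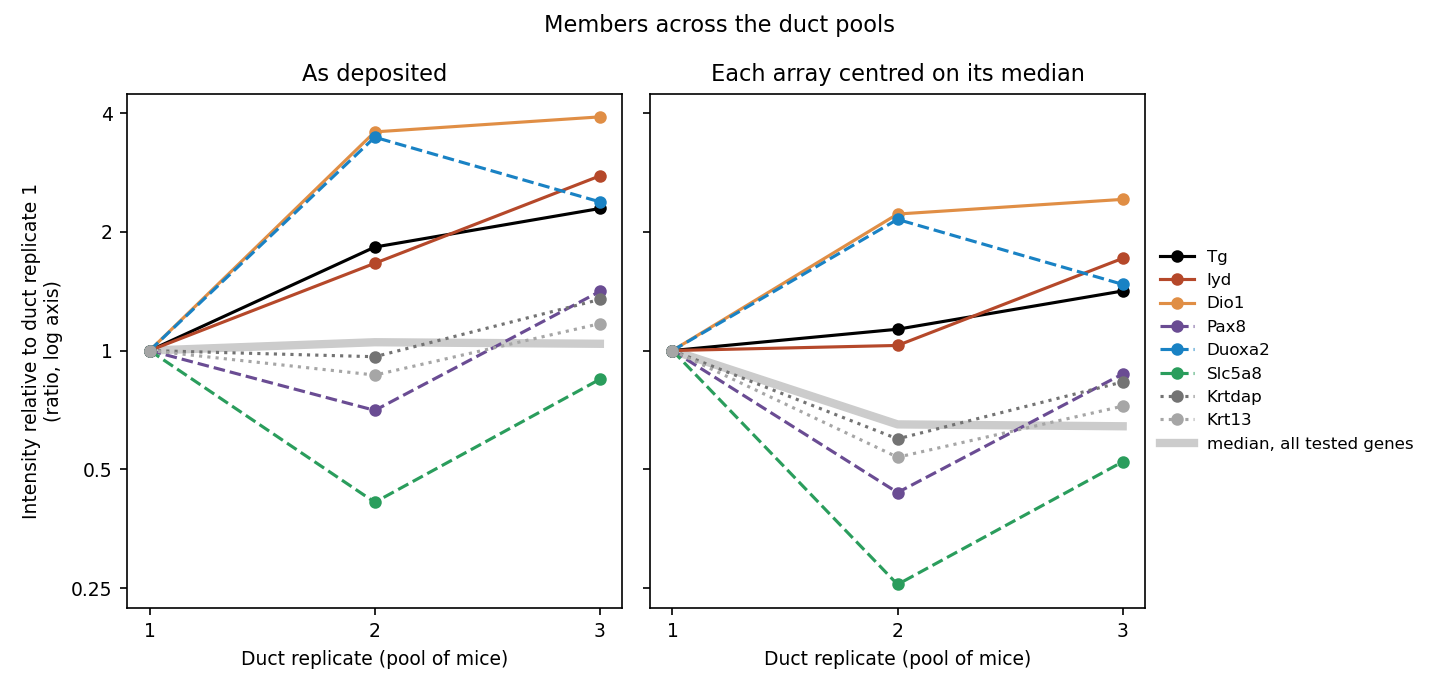
Intensity in each duct pool as a ratio to duct replicate 1 (log axis), as deposited (left) and after centring every array on its median (right), for 6 members, for the squamous genes Krtdap and Krt13 and for the median of all tested genes. Tg, Iyd and Dio1 climb over replicates 1, 2 and 3 in both panels, Duoxa2 peaks in replicate 2, and Pax8 and Slc5a8 dip there.

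The list of 25 other genes of thyroid hormone synthesis, release and action had 21 with a probe set of their own and 17 that were tested. None passed over all genes with limma in either direction, beside 0.838% called higher and 0.136% called lower of all genes tested. At an unadjusted p under 0.05, 3 were higher and 1 was lower, beside 991 and 1332 of all 12536 genes tested. The log2 fold change was positive in 13 of the 17, beside 41.6% of all genes tested. Their median was 0.32, against -0.12 over all genes tested. All duct arrays lay above both basal arrays in 4 of the 17, against 16.5% of all genes tested, and below them in 2, against 22.6%.

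Among the genes of iodide uptake and hormone synthesis, Slc5a5, the sodium-iodide symporter through which iodide enters the follicular cell, measured 172, 181 and 338 on duct replicates 1, 2 and 3, against 52.9 and 118 on basal replicates 1 and 2. The groups did not overlap on this probe set, 1436239_at, with a log2 fold change of 1.30 (SE 0.44, limma adjusted p = 0.209). On its dimmer probe set, 1422113_at, Slc5a5 measured 14.8, 105 and 237 in duct cells, against 143 and 10.9 in basal cells, and the groups overlapped.

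Slc26a7, an anion transporter that takes part in thyroid iodide handling, was chosen after its values were seen. Its probe set 1436279_at, left out as dim, measured 141, 288 and 309 on duct replicates 1, 2 and 3, against 1.19 and 34.3 on basal replicates 1 and 2, with no overlap. Its tested probe set, 1425841_at, measured 110.4, 339 and 533 in duct cells, against 134.5 and 55.5 in basal cells, with a log2 fold change of 1.49 (SE 0.69, limma adjusted p = 0.318). Both ranked the duct pools as Tg did, as deposited and under both normalizations. The tested probe set of Slc5a5 had that order as deposited and lost it with quantile normalization and with centring. Over the whole list, 5 of the 17 tested genes and 11 of the 41 probe sets had the order of Tg, beside 21.1% of all genes tested and 26.9% of all probe sets. Duox1 and its maturation factor Duoxa1, which airway epithelium also uses, did not pass the test, at log2 fold changes of 0.40 and 0.25 (limma adjusted p = 0.738 and 0.639).

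Nkx2-1 and Hhex, transcription factors that with Pax8 mark follicular cells, measured 199 or less on every array. Nkx2-1 lay under background on duct replicate 2 alone, and Hhex on basal replicate 2 alone. Nkx2-1, shared by thyroid and airway epithelium, measured 59.5, 7.13 and 199 on duct replicates 1, 2 and 3, against 125 and 116 on basal replicates 1 and 2, and did not pass the filter. Hhex, a homeobox gene of thyroid and foregut, measured 56.0, 174 and 164 in duct cells, against 60.04 and 75.4 in basal cells (log2 fold change 0.70, limma adjusted p = 0.490). Cdh16, a cadherin of kidney and thyroid, was at 0.24 (limma adjusted p = 0.841). Foxe1 was not analysed here.

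The proteases that release hormone from thyroglobulin are lysosomal enzymes of many cell types. Ctsl and Ctsb, the brightest of that group, measured 7602 ± 476 and 5996 ± 973 in duct cells (SD, n = 3), against 7238 ± 126 and 4823 ± 975 in basal cells (SD, n = 2), with log2 fold changes of 0.069 and 0.32 (limma adjusted p = 0.897 and 0.583). On the other probe sets of Ctsb the log2 fold change ran from -1.25 to 0.26. Of the hormone receptors and their partner, Thra measured 748, 819 and 855 in duct cells, against 1762 and 1286 in basal cells. On this tested probe set Thra did not overlap between groups, at a log2 fold change of -0.89 (SE 0.26, limma adjusted p = 0.163). On 1443952_at the groups did not overlap either, and on 1426997_at they did. Rxra, the retinoid X receptor that pairs with Thra, was at -0.35 on its tested probe set (limma adjusted p = 0.503) and at 0.054 on 1425762_a_at.

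Markers of stratified squamous epithelium were higher on the same duct arrays as Tg. Summed over Krt13, Krt4, Krt6a, Sprr1b and Krtdap they ran from 70953 to 90192 on the duct arrays and from 8466 to 10568 on the basal arrays. Of these, 5 of 5 were called higher, beside 0.838% of all genes tested. The list was chosen with earlier results of these data known, so that count is not an independent result. None of these 5 ranked the duct pools as Tg did, an order found in only 21.1% of all genes tested. The sum over 5 skeletal muscle markers ran from 123 to 466 in duct cells and from 364 to 536 in basal cells, and Acta1 and Tnnt3 were under background on every array. Its brightest member, Ckm, measured 55.5, 174 and 177 in duct cells, against 449 and 147 in basal cells, above background on all 5 arrays. Myl1 measured 32.5, 128 and 172 in duct cells, against 68.9 and 164 in basal cells, above background on all but duct replicate 1. The sum over 4 cartilage markers ran from 344 to 972 in duct cells and from 473 to 517 in basal cells. That over 5 fibroblast markers ran from 1720 to 4186 in duct cells and from 3642 to 4661 in basal cells, and that over 5 leukocyte markers from 907 to 1658 in duct cells and from 446 to 1165 in basal cells. The sums over the muscle and cartilage markers ranked the duct pools as Tg did, and those of fibroblasts and leukocytes did not. Single members did not all follow their sum. Of the cartilage markers only Col2a1 had the order of Tg, and of the muscle markers only Ckm, Myl1 and Myh2. Among the fibroblast markers Col1a1 and Col1a2 had it, and among the leukocyte markers Cd52. The cartilage sum was 950 on duct replicate 2 and 972 on duct replicate 3. Over all 15 marker lists of other cell types, 6 sums had that order, the basal cell markers among them. The part of thyroid or other neighbouring tissue in the level of Tg was not tested.

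The 10 tested genes with the pattern most like that of Tg were Krtdap, Lipf, Mt4, Lgals7, Crct1, Sprr1b, Dmkn, Them5, Chit1 and Tgm3. Likeness was the root mean square difference between log2(intensity + 16) profiles over the 5 arrays, each centred on its own mean, and it ran from 0.57 for Krtdap to 1.63 for Tgm3. Gm94, at 1.07, carries a predicted-gene name and was kept out of the 10. Iyd came 114th of 12535 genes, with a difference of 2.98. The measure is set mostly by the size of the gap between the groups, which is wide in all 10.

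Within the duct group these 10 genes ordered the pools differently from Tg. In 0 of the 10 did the duct pools rank as in Tg, an order found in only 21.1% of all genes tested. The ratio of duct replicate 3 to duct replicate 1 ran from 0.67 to 1.47, against 2.29 for Tg. Krtdap, a secreted protein of differentiating keratinocytes, measured 12675, 12226 and 17079 on duct replicates 1, 2 and 3, against 43.6 and 47.9 on basal replicates 1 and 2. Lipf, a gastric lipase gene, measured 4678, 4205 and 4913 in duct cells, against 36.9 and 8.14 in basal cells. Duct replicate 2 was the lowest duct array in both.

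**Figure D4:**
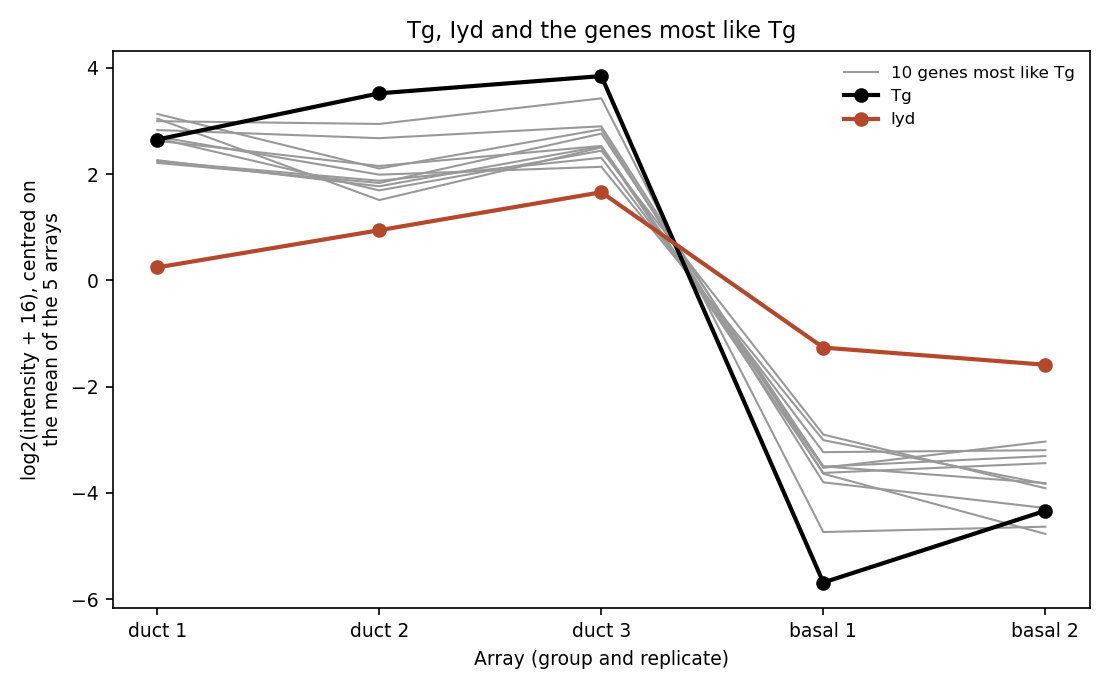
Log2(intensity + 16) on each array, centred on the mean of the 5 arrays, for Tg (black), Iyd (red) and the 10 genes most like Tg (grey). The 3 duct arrays lie above the 2 basal arrays for all of them, and Tg and Iyd climb over duct replicates 1, 2 and 3 while the grey lines dip in replicate 2.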

How the data were processed

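Per the series' design text, RNA of 5 samples was measured on Affymetrix Mouse Genome arrays. The deposited table holds 1 linear intensity per probe set and array, scaled by the authors: a trimmed mean that omits 2% of probe sets at either end is 500.0 on each array. The summary method, any background correction and any detection call were not given in the sources used here. Columns of other samples numbered 0.

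Probe sets were named from the platform annotation: 34945 had 1 gene, 932 several and 9160 no listed gene, and 64 controls were left out. All 84 list genes with a probe set matched the RefSeq gene table by Entrez identifier, and 0 needed a new symbol. The probe set with the highest mean log2(intensity + 16) stood for a gene, and the lowest 40% of probe sets by that mean were left out. Duct minus basal was tested on this scale, on which changes of dim genes come out too small, with limma 3.58.1 (lmFit, eBayes; R 4.3.3), 2-sided, without covariates, with Benjamini-Hochberg adjustment over 12536 genes. Of these 105 were higher and 17 lower at an adjusted p under 0.05. Where both basal arrays were at or under their brightest of 27 Bacillus probe sets, the fold is a lower bound against that level. It was taken between group means of log2(intensity + 16), so it need not hold for each duct array. The number of arrays limits the precision.

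The genes and lists were chosen with earlier results of these data known. Named were the members; of the other thyroid genes those called, the 2 brightest of each role and Slc5a5, Nkx2-1, Foxe1 and Hhex; the 2 brightest of a marker list described; and the 10 genes most like Tg, clone and predicted-gene names left out. Slc16a10, Dio2 and the other list genes without a mention were not called. A gene named for another reason is said to be so or stands as a component of a marker sum. The fit was tested on simulated data.

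Samples sharing a replicate number came from separate pools, and their deviations from the group means correlated at -0.083 and -0.037 across genes, so the numbers do not pair them. At most 1 probe set had the same value on any given pair of arrays. Alternatives were quantile normalization, median centring, pseudocounts of 1 and 64, no filter or a 60% filter, averaging of all probe sets of a gene, omission of possibly cross-hybridising ones, a trend with robust fit, a replicate block, omission of each array in turn and probe sets as the unit.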

Additional observations from a re-analysis of the deposited data

How the results depend on the processing

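Tg kept a positive log2 fold change under all 15 alternatives run, from 7.24 to 9.11, and passed the limma test in 11 of them, with adjusted p from 7.81e-09 to 0.112 over the 15. It did not pass with the replicate number as a block (8.10, adjusted p = 0.112), which leaves 1 residual degree of freedom, nor without either basal array or without duct replicate 3. With 1 array left out its log2 fold change ran from 7.68 to 9.03. A lone basal array was taken to vary as the duct arrays do.

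The number of members called was 2, Tg and Iyd, with each array centred on its median, with the filter at 60% and with an intensity trend and robust fit. It was 0 with the replicate block and 0 to 1 with an array left out. Log2 fold changes of Iyd, Pax8 and Slc5a8 stayed positive in every alternative in which they were tested. That of Duoxa2 ran from -0.025 without duct replicate 2 to 0.76 without duct replicate 1. Pax8 was not tested without duct replicate 1, and neither Pax8 nor Duoxa2 with the 60% filter. Slc5a8 ranged from 0.056 to 1.63, both with a basal array left out.

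Over all genes limma called 122. The number was 338 with median centring, 303 with a pseudocount of 64, 36 with no filter, 408 with the 60% filter, 191 with all probe sets of a gene averaged, 942 with the trend and robust fit and 63 with probe sets as the unit. It was 0 with the replicate block (at an unadjusted p under 0.05, 650 higher and 958 lower) and 0 to 39 with an array left out; without basal replicate 2 it was 0, and the unadjusted counts were 927 higher and 889 lower. The cause of these shifts was not tested. Members ranking the duct pools as Tg does, Tg included, numbered 2 or 3 in the 8 alternatives run for this count. These were either normalization, either pseudocount, either filter, averaged probe sets and possibly cross-hybridising ones left out.

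Ratios of duct replicate 3 to duct replicate 1, for which the alternatives were chosen after seeing the data, were 2.18, 1.42 and 2.29 for Tg with quantile normalization, median centring and subtraction of the median Bacillus intensity. In the same order they were 2.41, 1.71 and 2.85 for Iyd and 2.33, 2.42 and 4.67 for Dio1. The absence of detection calls limits what can be said of the dim members Dio1, Tshr and Slc26a4.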

Other observations

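Markers of the endocrine cells that lie in or beside the thyroid were near background. Pth, the parathyroid hormone gene, measured 165, 25.3 and 34.8 on duct replicates 1, 2 and 3, against 15.6 and 1.53 on basal replicates 1 and 2. It was above the brightest Bacillus control on duct replicate 1 alone, the pool in which Tg was lowest. Casr, the calcium-sensing receptor of parathyroid cells, measured 26.8, 63.8 and 33.4 in duct cells, against 87.8 and 53.4 in basal cells. Summed over Ret, Chga and Scg2, the markers of thyroid C cells ran from 128 to 238 on the duct arrays and from 81.6 to 293 on the basal arrays. None of these genes passed the filter, and none was tested.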
